A study of Mus musculus with 18 samples.

Results

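Nuclear RNA was compared with cytoplasmic RNA in untreated BV2 cells, an immortalised mouse microglial line. Every gene with a mean read count of at least 10 in the nuclear or the cytoplasmic fraction was included, which left 17011 of 55487 genes. The nuclear fraction alone brought in 16306 of them and the cytoplasmic fraction alone 10780. Both fractions passed for 10075 genes, the nuclear fraction only for 6231 and the cytoplasmic fraction only for 705. Relative to the cytoplasm, the nucleus was high in long noncoding RNAs known from the nucleus, such as Malat1 and Neat1. It was also high in small nucleolar RNAs and transcripts annotated inside other genes, most of which passed through the nuclear fraction alone. It was low in mitochondrial and histone RNAs and in well-expressed coding genes. Y and vault RNAs were low as well, most of them passing through the cytoplasmic fraction alone.

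Messenger RNAs are transcribed, capped, spliced and polyadenylated in the nucleus and are then exported through nuclear pores to be translated. Many long noncoding RNAs, the small nucleolar RNAs that guide modification of ribosomal RNA, and RNAs with introns still in place stay behind. Transcripts of the mitochondrial genome are made inside the mitochondria, which go with the cytoplasm when a cell is opened and the nuclei are spun down. The ratio between the 2 fractions is a usual measure of where an RNA resides.

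The series has 18 libraries of BV2 cells in 6 groups of 3. Nuclear and cytoplasmic RNA were taken from untreated cells (0 h) and from cells given 10 µM oxyhemoglobin for 12 or 24 h. The 6 untreated libraries are the subject here, and the treated groups serve as other libraries in which the same ratio can be read. BV2 is a single established line, so the values describe that line in culture. Per the labels' protocols, cells were opened in a hypotonic buffer with the detergent NP-40, nuclei were pelleted at 8000 g and washed, and cytoplasmic RNA came from the supernatant.

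The deposited values are the mean counts of the 3 libraries of each group, so no spread between replicates can be given and no difference below was tested against it. The untreated nuclear libraries held 14652566 reads in genes in sum and the cytoplasmic ones 22379595. Counts were scaled to normalised counts per 1000000 reads (CPM) with the trimmed mean of M-values, and the log2 ratio is the nuclear over the cytoplasmic value. Each ratio has a 95% interval from the summed reads of the 3 libraries, which covers counting error only. A gene was called higher or lower in the nucleus where its ratio reached 2-fold in either direction and the interval excluded 0. The ratio compares shares of each fraction's reads. The amount of RNA per fraction was not measured, so the share of a gene's molecules that is nuclear cannot be given, and fewer cells with an RNA and less RNA per cell cannot be told apart.

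Microglia and macrophage markers were detected in both fractions. Of the 10 markers, 8 reached a mean count of 10 in either fraction, 7 in the nucleus and 5 in the cytoplasm, and the 10 summed to 419 normalised CPM in the nucleus and 433 in the cytoplasm. Most of these sums came from Ptprc, the leukocyte surface protein CD45, at 356 normalised CPM in the nucleus and 42.0 in the cytoplasm, and Spi1, the transcription factor PU.1, at 26.9 and 302. Markers of neurons, astrocytes and fibroblasts summed to at most 0.446 normalised CPM in the nucleus and 0.495 in the cytoplasm. Those 3 lists, and the erythroid and lymphocyte lists, each had 2 of 3 markers at 0 in both fractions, the globins Hba-a1 and Hbb-bs among them. The oligodendrocyte, endothelial, erythroid and lymphocyte lists summed to between 2.07 and 7.54 normalised CPM in the nucleus and between 0 and 14.4 in the cytoplasm. The largest count among markers of other cells was a mean of 64.3, for the myelin gene Mbp in the cytoplasm.

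The following sequences belong to small RNAs whose values are described further on: a small nucleolar RNA, a pair of Y RNAs and a microRNA precursor of opposite ratios, and Rn7sk, whose ratio differs from the place it is known from. They are given 5′ to 3′ from GENCODE M21 on GRCm38, and the microRNA hairpin from RefSeq on GRCm38.p6. Snord17, a C/D box small nucleolar RNA, spans chr2:144265979-144266216 on the minus strand, with the C box letters TGATGA and the final CTGA of the D box in capitals. The Y RNAs, small partners of the Ro60 protein, are Rny1 at chr6:47788069-47788180 on the minus strand and Rny3 at chr6:47781624-47781725 on the plus strand. Capitals in both mark the shared start GGNTGGTCCGA. Of Rn7sk, the RNA that holds the elongation factor P-TEFb inactive, the first 60 bases are given (chr9:78175574-78175633, minus strand), with GATC in capitals, the letters found in the hairpin bound by HEXIM proteins. Mir674 spans chr2:117185127-117185226 on the plus strand, with the seeds (bases 2 to 8) of both mature arms in capitals and RNA letters.
Snord17: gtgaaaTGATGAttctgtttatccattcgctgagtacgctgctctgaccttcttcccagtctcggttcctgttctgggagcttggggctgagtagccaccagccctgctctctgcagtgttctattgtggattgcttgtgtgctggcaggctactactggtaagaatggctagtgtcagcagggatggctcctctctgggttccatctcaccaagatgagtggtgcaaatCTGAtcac
Rny1: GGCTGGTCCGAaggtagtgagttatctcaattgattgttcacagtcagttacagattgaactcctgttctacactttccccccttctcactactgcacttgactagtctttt
Rny3: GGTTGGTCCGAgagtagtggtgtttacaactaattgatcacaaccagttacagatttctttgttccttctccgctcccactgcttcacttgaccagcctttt
Rn7sk: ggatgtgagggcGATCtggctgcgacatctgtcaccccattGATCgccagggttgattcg
Mir674: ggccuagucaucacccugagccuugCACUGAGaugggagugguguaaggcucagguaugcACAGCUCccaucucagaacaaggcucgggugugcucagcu

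Such box letters are frequent in their families and rare elsewhere. On the sense strand, TGATGA in the first 20 bases together with CTGA in the last 20 was found in 16 of 28 Snord transcripts (57.1%) and in 378 of 141704 annotated transcripts (0.267%). ACA at 3 bases from the end was found in 13 of 15 Snora transcripts (86.7%) and in 3470 of all transcripts (2.45%). GGNTGGTCCGA stood at the start of 2 transcripts in the annotation, Rny1 and Rny3, from whose first 11 bases it was taken. A match of letters is a description and not a tested site.

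Of the 17011 genes, 8076 were called higher in the nucleus (47.5%) and 5754 lower (33.8%), with 3181 in neither set and a median log2 ratio of 0.73. Many of the higher genes passed through the nuclear fraction alone, which fixes a high ratio in part. Among the 10075 genes that passed in both fractions, 2279 were higher (22.6%) and 5052 lower (50.1%), and the median was −1.01, which turned to 0.41 with total counts. The scale sets where 0 lies. Scaling by total counts moves every log2 ratio up by 1.41, leaving the order of genes as it is, and then 10283 genes were higher and 2898 lower. Of all calls, 58.4% were higher in the nucleus with the trimmed mean and 78.0% with total counts. Median-of-ratios factors move every ratio down by 0.44, and total counts without the single highest gene move it up by 1.66, with 82.0% of calls higher. Ratios less than 1.66 below 0 or less than 0.44 above it therefore have no fixed sign, and those beyond these bounds keep their direction under each scaling tried.

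**Figure D1:**
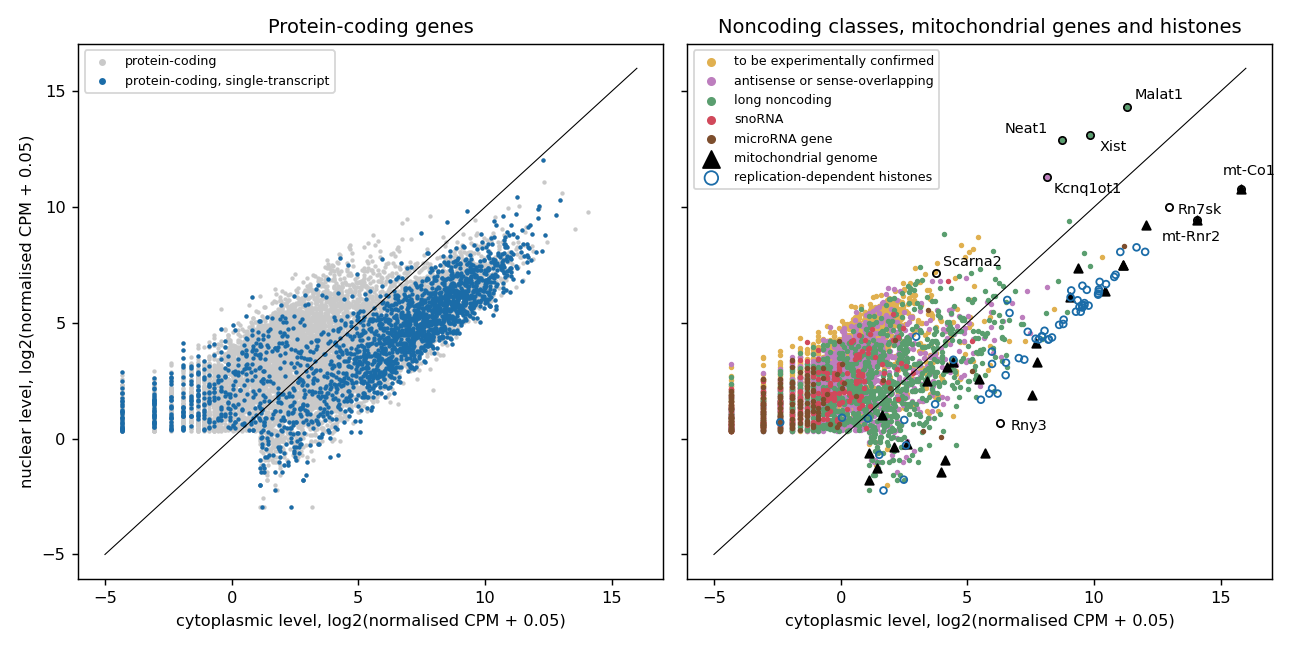
Nuclear level (vertical) against cytoplasmic level (horizontal) of each gene in untreated BV2 cells, both as log2(normalised CPM + 0.05) of the mean of 3 libraries, with the line of equal levels. Left, coding genes in grey and single-transcript coding genes in blue, which lie mostly under the line at high levels (median log2 ratio −2.05). Right, noncoding classes, which lie mostly above it, with mitochondrial genes and most histones below it. In each noncoding class shown but the long noncoding genes, most genes passed the count minimum through the nuclear fraction only, which fixes a high ratio in part. Long noncoding genes that passed in both fractions had 139 higher and 121 lower.

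Read composition differed between the fractions. Coding genes took 63.5% of the nuclear reads and 89.5% of the cytoplasmic reads. Long noncoding genes took 8.48% of the nuclear reads, against 1.10% of the cytoplasmic reads, and antisense or sense-overlapping genes 2.37% against 0.310%. Malat1 alone held 3.51% of nuclear and 0.162% of cytoplasmic reads, Xist 1.49% and 0.0583%, and Neat1 1.29% and 0.0271%. Mitochondrial coding genes ran the other way, with 0.512% of the nuclear and 4.32% of the cytoplasmic reads. One gene without a name in the reference used here, ENSMUSG00000118642, took 18.6% of the nuclear reads, against 0.0815% of the cytoplasmic reads. Its mean counts were 908579 in the nucleus and 6081 in the cytoplasm, a log2 ratio of 6.42. The 10 highest genes together held 27.2% of the nuclear and 9.22% of the cytoplasmic reads.

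How reads were counted bears on every coding gene. Genes without any base that belongs to a single annotated transcript were nearly always at 0: 1348 of 1363 such genes had no read in any of the 6 group means (98.9%). Of coding genes with at least 1 such base, 5647 of 21663 were at 0 (26.1%). The counts thus behave as reads on sequence found in 1 transcript only, and for a gene with many isoforms that sequence can be a retained intron or a rare exon. Among coding genes, those with under 5% of their exonic bases in a single transcript had a median log2 ratio of 1.24 (109 genes). From 60% to 80% the median was −1.25 (2378 genes), at 0.16 with total counts, and for genes wholly in 1 transcript it was −2.13 (901 genes). Where the single-transcript bases were under 5% coding, the median was 1.93 and 946 of 1411 genes were higher. Where they were wholly coding, it was −1.73, with 636 of 2518 genes higher and 1519 lower. Results are therefore given beside those of genes with at least 80% of their exonic bases in a single transcript, called single-transcript genes, a limit chosen after these data were seen.

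Long noncoding RNAs known to act or collect in the nucleus were mostly higher in the nucleus. Of 27 listed, 19 passed the count minimum, of which 17 were higher in the nucleus, and the median log2 ratio was 3.02, against 0.73 over all genes. The 15 that passed in both fractions had 13 higher and 1 lower, with a median of 3.17. The 6 single-transcript members were all higher, with a median of 3.60. Malat1, the abundant RNA of nuclear speckles (chr19:5795690-5802672, minus strand), had 20866 normalised CPM in the nucleus and 2566 in the cytoplasm, an 8.13-fold difference. Neat1, the scaffold of paraspeckles (chr19:5824708-5845478, minus strand), had 7642 normalised CPM in the nucleus and 430 in the cytoplasm. Its log2 ratio was 4.15, with an interval of 4.12 to 4.19. Xist, which coats the inactive X chromosome, had 8882 normalised CPM in the nucleus and 923 in the cytoplasm. Kcnq1ot1, the imprinted antisense RNA within Kcnq1 (chr7:143203458-143296549), had 2516 and 280, a log2 ratio of 3.17. All 4 were several-fold higher in the nucleus, and the same held for the microRNA hosts. Mir142hg, the host of the blood-cell microRNA miR-142, had 65.7 normalised CPM in the nucleus and 3.68 in the cytoplasm. Mir17hg, the host of the miR-17 cluster, had 96.5 and 6.30. Peg13, an imprinted RNA inside Trappc9, had 8.31 and 0.991. The exception was Tug1, at 82.9 normalised CPM in the nucleus and 166 in the cytoplasm, a log2 ratio of −1.0 that turned to 0.41 with total counts. Tug1 has 40.4% of its exonic bases in a single transcript.

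Over all 978 annotated long noncoding genes the separation was smaller, with 542 higher (55.4%, against 47.5% of all genes), 172 lower and a median log2 ratio of 1.31. Of the 978, 462 passed through the nuclear fraction only, which fixes a high ratio in part. The 464 that passed in both had 139 higher and 121 lower, with a median of 0.08 that is negative with median-of-ratios factors. The 127 of the 978 that lie inside another gene with nuclear reads had a median of 3.10, and the 851 that do not had 1.05. Host genes of small nucleolar RNAs, whose spliced exons are by-products or coding mRNAs, had a median of 2.23. Of the 16, 10 were higher (62.5%, against 47.5% of all genes) and 2 lower. The nuclear fraction alone brought in 3 of them, which fixes a high ratio in part. The 13 hosts that passed in both had 7 higher and 2 lower, with a median of 1.06. Snhg14, the imprinted host of the brain-type C/D box clusters, had the highest ratio at 3.19, with 41.4 normalised CPM in the nucleus and 4.53 in the cytoplasm. Rps2, a coding host for a protein of the small ribosomal subunit, had the lowest at −4.65, with 115 normalised CPM in the nucleus and 2894 in the cytoplasm.

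Small nucleolar RNAs guide base modification in the nucleolus, and small Cajal body RNAs do the same for spliceosomal RNAs. Of the 54 named small nucleolar, Cajal body and spliceosomal RNAs that passed, from 172 listed, 43 were higher in the nucleus and 2 lower, and the median log2 ratio was 2.63. Of these, 40 passed through the nuclear fraction only, which fixes a high ratio in part. The 14 that passed in both had 6 higher and 2 lower, at a median of 0.73. The C/D box family had 22 of 28 members higher and 1 lower, with a median of 2.77. Its values ran from −1.0 to 5.31. The H/ACA box family had 12 of 15 higher and 0 lower, at a median of 2.43. All 6 named Cajal body RNAs were higher, with a median of 3.28. Snord17, printed above, had 111 normalised CPM in the nucleus and 18.8 in the cytoplasm. Scarna2 (chr3:108554338-108554751, minus strand) had 141 and 13.4, a log2 ratio of 3.39 with an interval of 3.18 to 3.61. Snora62, an H/ACA box RNA, had mean counts of 45.3 in the nucleus and 0.333 in the cytoplasm, which is 1 read over 3 libraries, so its log2 ratio of 6.28 has a wide interval of 3.78 to 11.60.

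Spliceosomal RNAs did not move as 1 group. Rnu5g, a U5 RNA, had 5.96 normalised CPM in the nucleus and 13.2 in the cytoplasm, a log2 ratio of −1.15 that turned to 0.26 with total counts. The single U12 RNA of the minor spliceosome had a ratio of 1.64. Of 189 annotated small nuclear RNA genes 162 were higher, with a median of 3.02, but 160 passed through the nuclear fraction only and 151 lie inside another gene. The 28 that passed in both fractions had 3 higher and 17 lower. The 38 small nuclear RNA genes that do not lie inside another gene had a median of 0.13, with 18 higher and 14 lower. That median is negative with median-of-ratios factors.

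Lying inside another gene went with a high nuclear ratio in nearly every class. Of all 17011 genes, 3695 lie inside a gene with nuclear reads. Their median log2 ratio was 3.30 and 88.4% were higher, against a median of −0.30, positive with total counts, for the 13316 others. Reads from such a gene and from the host's intron cannot be told apart where strands are shared, and the strand setting of the counts was not stated in the sources used here. The 207 small nucleolar RNA genes inside a host had a median of 3.00, and the hosts themselves −0.62, positive with total counts, with 183 of the 207 above the host. The 18 outside any host had 2.79. For genes still awaiting experimental evidence (TEC in the annotation), 1005 inside a host had a median of 3.59 and the hosts 0.66, with 858 above the host. Antisense genes inside a host had 3.21, against 0.32 for the hosts. Most genes of these classes passed through the nuclear fraction only, 205 of 225 small nucleolar RNA, 872 of 1256 TEC and 907 of 1244 antisense or sense-overlapping genes, and a high ratio was fixed in part by that. Where both fractions passed, 11 of 20 small nucleolar RNA genes were higher and 1 lower, 287 of 378 TEC genes higher and 37 lower, and 140 of 316 antisense or sense-overlapping genes higher and 51 lower. Pseudogenes split by position. The 867 inside another gene had a median of 3.20 with 733 higher, and the 983 outside had −2.68 with 637 lower. Of all 1850 pseudogenes, 991 passed through the nuclear fraction only and 359 through the cytoplasmic fraction only, which fixes these directions in part. The 500 that passed in both had 45 higher and 360 lower, with a median of −2.56.

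MicroRNA genes, which are read here as primary transcripts or precursors and not as mature microRNAs, mostly passed the count minimum through the nuclear fraction. Of 178 genes of this class 170 did so through that fraction only, which fixes a high ratio in part. In all, 170 were higher and 4 lower, at a median log2 ratio of 3.44. The 7 that passed in both fractions had 2 higher and 3 lower, with a median of 0.25 that is negative with median-of-ratios factors. The median of the class was 3.46 for the 130 inside another gene and 3.14 for the 48 outside. Mir674, whose hairpin is printed above, had mean counts of 49.0 in the nucleus and 0.333 in the cytoplasm, 5.96 and 0.0708 normalised CPM. Its log2 ratio was 6.40, with an interval of 3.90 to 11.71 because the cytoplasm held 1 read over 3 libraries. Mir703 was the lowest of the listed microRNA genes, with 1.01 normalised CPM in the nucleus and 15.6 in the cytoplasm, a ratio of −3.94.

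**Figure D2:**
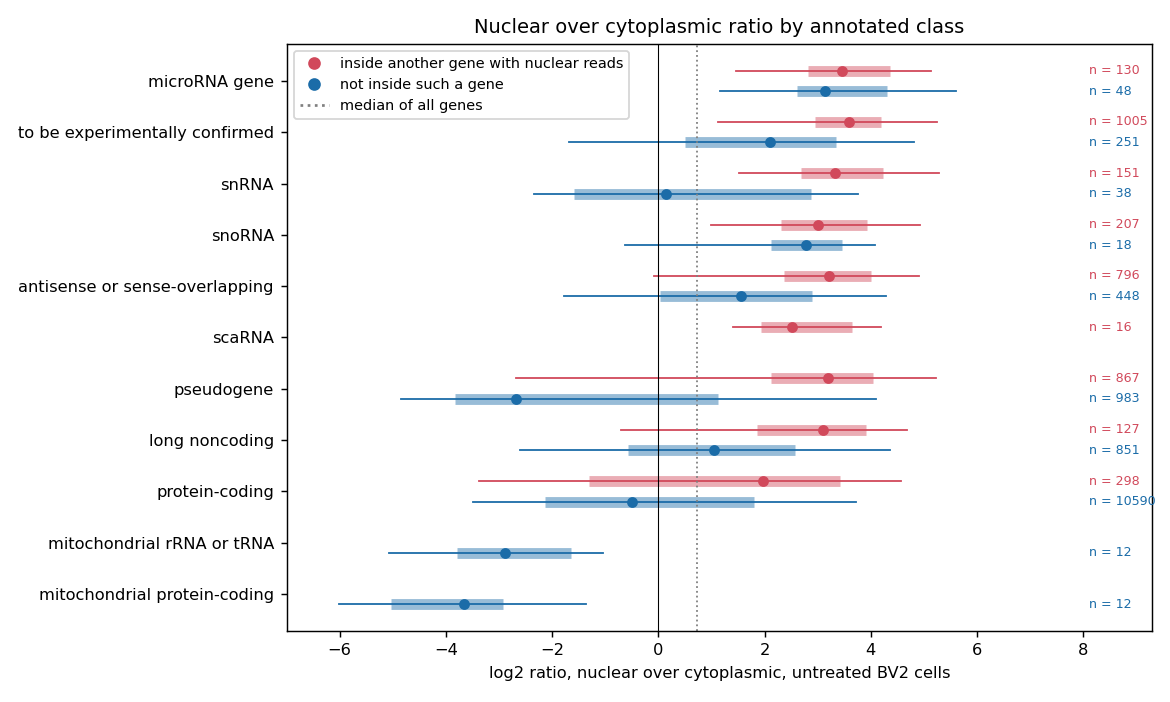
Log2 ratio of nuclear over cytoplasmic level by annotated gene class in untreated BV2 cells, for genes inside another gene with nuclear reads (red) and not inside one (blue). Points are medians, thick bars quartiles and thin lines the range from the lowest 5% to the highest 5% of genes, and the dotted line is the median of all genes (0.73). Pseudogenes inside another gene sit at 3.20 and those outside at −2.68, while small nucleolar RNAs sit near 3 in both positions. Most genes of both classes passed the count minimum through a single fraction only.

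RNAs of the mitochondrial genome were among the most cytoplasmic. Of 12 mitochondrial coding genes 11 were lower in the nucleus (91.7%, against 33.8% of all genes) and 0 higher, and the median log2 ratio was −3.66. Of 12 mitochondrial transfer and ribosomal RNAs 11 were lower, with a median of −2.88. The cytoplasmic fraction alone brought in 3 of the coding genes and 5 of the others, which fixes a low ratio in part. Where both fractions passed, 8 of 9 and 6 of 7 were lower, with medians of −3.65 and −2.89. mt-Co1, a subunit of cytochrome c oxidase, had 1759 normalised CPM in the nucleus and 56766 in the cytoplasm, a 32.3-fold difference. mt-Co2, another subunit, had 0.608 and 51.7. mt-Rnr2, the large ribosomal RNA, had 702 normalised CPM in the nucleus and 17400 in the cytoplasm. mt-Rnr1, the small ribosomal RNA, had 17.5 and 208. These genes lay far below the line of equal levels. mt-Nd5, a subunit of complex I, was less low at a ratio of −2.84. mt-Nd3, another complex I subunit, had 1.99 normalised CPM in the nucleus and 3.04 in the cytoplasm, and its interval of −1.24 to 0.01 included 0. Nuclear copies of mitochondrial sequence exist in the genome, and how reads matching both were treated is not given in the sources used here.

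Short RNAs made by RNA polymerase III and known from the cytoplasm were lowest of the lists. The Y RNAs, the vault RNA and the 7SL RNAs of the signal recognition particle were all lower in the nucleus, 5 of 5, with a median log2 ratio of −5.22. Of the 5, 4 passed through the cytoplasmic fraction only, which fixes a low ratio in part. The 1 that passed in both was at −5.65. Rny3, printed above, had 1.54 normalised CPM in the nucleus and 77.4 in the cytoplasm, a ratio of −5.65 with an interval of −6.16 to −5.18. Rny1, which shares its first letters but 1, had 0.406 and 15.1. Vaultrc5, the RNA of the vault particle, had 0.122 normalised CPM in the nucleus, which is 3 reads, and 11 in the cytoplasm, a ratio of −6.49 with an interval of −8.79 to −4.92. Rn7s1 had 0.771 and 10.5, and it has near-identical copies, so its own level is uncertain.

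The nuclear polymerase III RNAs were low in the nucleus too. Rn7sk, the 7SK RNA known as a nuclear regulator of transcription elongation, had 1025 normalised CPM in the nucleus and 7970 in the cytoplasm. Its log2 ratio of −2.96 has an interval of −2.98 to −2.94 and was −1.55 with total counts, so the direction did not depend on the scale. It took 0.172% of the nuclear and 0.503% of the cytoplasmic reads. Rpph1, the RNA of the tRNA-processing enzyme RNase P, had 1.66 normalised CPM in the nucleus and 13.3 in the cytoplasm, a ratio of −3.0. These values are the reverse of the places these RNAs are known from. Rmrp of the same list did not reach the count minimum, nor did the imprinted RNA Meg3.

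Replication-dependent histone mRNAs, which end in a stem-loop in place of a poly(A) tail, were strongly cytoplasmic. Of 59 that passed, from 70 listed, 54 were lower in the nucleus (91.5%, against 43.0% of all coding genes) and 2 higher, and the median log2 ratio was −3.67. The median was the same in the 41 single-transcript members, of which 38 were lower (92.7%). Their median level was 305 normalised CPM. Of single-transcript coding genes above 300 normalised CPM, 96.8% were lower, at a median of −3.04. All 13 histone H4 genes and all 10 histone H3 genes were lower, with medians of −3.76 and −3.77. Histone H2A had 15 of 17 lower, H2B 12 of 13 and the linker histone H1 4 of 6. Hist2h4 (chr3:96261682-96263311) had 269 normalised CPM in the nucleus and 4164 in the cytoplasm. Hist1h4d (chr13:23581598-23582735) had 87.2 and 1172, and Hist1h1c, a linker histone, 308 and 3291. Hist1h1t, the testis-type linker histone, was the highest member, with 1.58 normalised CPM in the nucleus and 0.142 in the cytoplasm, which is 2 reads, a ratio of 3.48 with an interval of 1.53 to 6.58. Histone genes of a class share much of their coding sequence, so reads could be split between copies. The stem-loop letters of the H4 genes named above are shown with CTTTTNAG in capitals, at chr13:23581946-23581969 on the plus strand and chr3:96262935-96262958 on the minus strand.
Hist1h4d: caaaggccCTTTTCAGggccacta
Hist2h4: taacggccCTTTTTAGggccaacc

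CTTTTNAG was searched on the sense strand in the first 100 bases after the stop codon. It was found in 40 of 44 histone genes whose transcript could be read (90.9%) and in 19 of 2100 other single-transcript coding genes (0.905%). Histone genes with these letters had a median log2 ratio of −3.53 (36 of 40 lower), and the 4 without them −3.27. The 19 other genes with the letters had −2.30, near the −2.05 of single-transcript coding genes as a whole.

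Of 2193 single-transcript coding genes, 1519 were lower in the nucleus (69.3%) and 380 higher (17.3%), with a median log2 ratio of −2.05. With total counts 893 were lower and 542 higher, with a median of −0.64. Over all 10888 coding genes 4682 were lower (43.0%) and 3736 higher (34.3%), with a median of −0.45 that turned to 0.97 with total counts. Among the 1796 single-transcript coding genes that passed in both fractions, 86 were higher and 1445 lower, at a median of −2.29. The 322 that passed through the nuclear fraction only had a median of 3.12, which their selection fixes in part.

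The ratio went with the number of reads. Single-transcript coding genes with more than 300 normalised CPM on average had a median log2 ratio of −3.04, with 334 of 345 lower and 1 higher. Those from 30 to 100 had −2.15, with 394 of 490 lower. Those from 2 to 5 had 0.37, negative with median-of-ratios factors, with 99 of 214 higher, and under 2 the median was 2.64. Spearman's correlation across 2193 genes was −0.604. It is a description, since both measures share the same counts, levels are not corrected for gene length and a rare gene passes more readily through the nuclear fraction. Other features moved the median less. The fifth with the shortest 3′ UTRs had a median of −1.15, which turned to 0.26 with total counts, and the fifth with the longest −2.24. The fifth with the shortest coding sequences had −2.44 and the fifth with the longest −1.64, just above 0 with total counts without the highest gene. Genes of 1 exon had −2.28 and those of 2 or more −2.03. GC content had a Spearman correlation of −0.019 with the ratio. Genes with 3 or more C2H2 zinc finger motifs in the protein had −1.37, which turned to 0.05 with total counts, against −2.10 in genes with none.

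**Figure D3:**
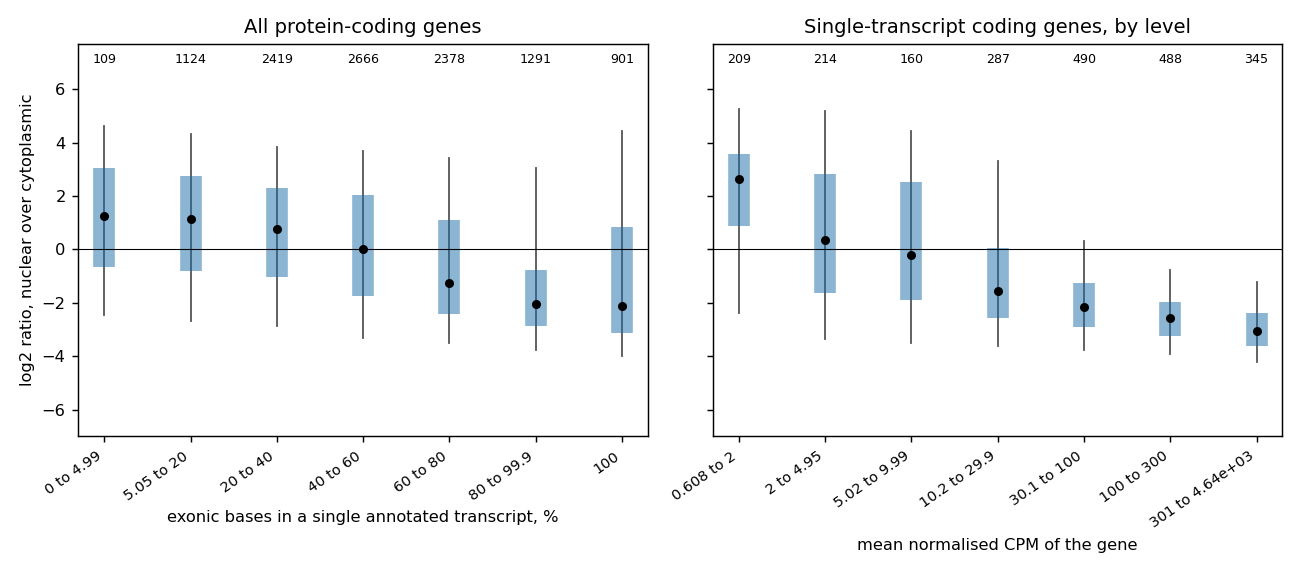
Log2 ratio of nuclear over cytoplasmic level of coding genes in untreated BV2 cells by the percent of exonic bases found in a single transcript (left), and of single-transcript coding genes by mean normalised CPM (right). Points are medians, bars quartiles, lines the range from the lowest 5% to the highest 5%, and the number of genes stands above each group. The median is 1.24 in the leftmost group and −2.13 in the rightmost on the left, and 2.64 and −3.04 on the right.

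The lowest ratios among single-transcript coding genes were led by Rpl10-ps3 and Hnrnpa0. Rpl10-ps3 had 0.568 normalised CPM in the nucleus and 18.5 in the cytoplasm, and it resembles Rpl10, so its reads are uncertain. Hnrnpa0, an RNA-binding protein gene with a single exon, had 40.9 and 1273, a log2 ratio of −4.96 with an interval of −5.05 to −4.87. Mrfap1 had 80.2 normalised CPM in the nucleus and 2015 in the cytoplasm, and Ciao2a, a gene of the cytosolic iron-sulfur assembly pathway, 33.4 and 885.7. Ids, the lysosomal iduronate sulfatase, had 1.18 and 33.6. Strap and Mtpn were both at −4.49. Each of these stayed below −3 at 12 and at 24 h. Srp54b, at −4.80 with 0.527 and 14.7 normalised CPM, was −1.23 at 12 h and −0.97 at 24 h.

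At the other end, 10 single-transcript coding genes led with few reads in the cytoplasm. Olfr113, an olfactory receptor gene (chr17:37573877-37577663, minus strand), had 70.1 normalised CPM in the nucleus and 1.70 in the cytoplasm, a log2 ratio of 5.37 with an interval of 4.79 to 6.01. Col4a4, a basement membrane collagen gene, had 26.7 and 0.708, a ratio of 5.24. Mmrn2, a glycoprotein gene known from endothelium, had 17.4 and 0.212, a ratio of 6.35 with an interval of 4.80 to 8.64. Abra, a gene known from muscle, had 14 and 0.212, a ratio of 6.04 with an interval of 4.48 to 8.33, and Wnt4, a secreted signalling protein, 7.18 and 0.142. Capns2 had the highest ratio of the 10 at 6.44. Its interval is 3.94 to 11.75, since its 0.0708 normalised CPM in the cytoplasm is 1 read, and it lies inside Lpcat2. Olfactory receptor genes as a list had 20 of 22 higher in the nucleus (90.9%, against 34.3% of all coding genes) and 1 lower, with a median of 3.19, from 1407 listed. Of the 22, 17 passed through the nuclear fraction only, which fixes a high ratio in part. The 4 that passed in both had 3 higher and 0 lower. The 322 single-transcript coding genes that passed through the nuclear fraction only had a like median of 3.12.

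The wider set of extreme genes included single-read cases. Phgdh-ps1, a pseudogene inside Il16, had the highest ratio of the genes named by the rule, 7.10, with 9.69 normalised CPM in the nucleus and 0.0708 in the cytoplasm and an interval of 4.61 to 12.41. Ocrl, the gene of an inositol phosphatase, had 7.54 and 0.0708, with 37.4% of its bases in a single transcript. Its ratio was 6.74 untreated (interval 4.24 to 12.05), 3.03 at 12 h and 3.24 at 24 h. Rpl21-ps15, a ribosomal pseudogene, had 7.34 and 294 normalised CPM, a ratio of −5.32 that was −1.99 at 12 h. Pseudogenes of ribosomal proteins can take reads of the parent gene.

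Genes of translation and of the proteasome had more members lower than the 43.0% of all coding genes. Translation factors had 35 of 47 lower (74.5%) and 8 higher, with a median log2 ratio of −2.03. Their median level was 105 normalised CPM, and of coding genes with 100 to 300 normalised CPM 1190 of 1378 were lower (86.4%). Eef2, the factor that moves the ribosome along, had 876 normalised CPM in the nucleus and 17420 in the cytoplasm, a ratio of −4.31. Eef1a1, which brings aminoacyl-tRNA, had 541 and 11997, a ratio of −4.47. The nuclear levels were 19.9-fold and 22.2-fold lower. The proteasome list had 27 of 36 lower (75%) and 4 higher, with a median of −2.25 at a median level of 33.3 normalised CPM. Coding genes with 30 to 100 normalised CPM had 61.0% lower. Cytosolic ribosomal proteins were split, with 41 of 78 lower (52.6%) and 25 higher and a median of −1.08 that turned to 0.34 with total counts. In the 6 single-transcript members the median was −2.58 with 5 lower. Rps3a1 had 211 normalised CPM in the nucleus and 3611 in the cytoplasm, and Rplp1 342 and 3198. Rpl13a, with 37.1% of its bases in a single transcript, had 30.8 and 32.1. Mitochondrial ribosomal proteins had 40 of 72 lower (55.6%), 17 higher and a median of −1.59, which turned to 0.08 with total counts without the highest gene. Ribosomal proteins have many pseudogene copies, so their values are uncertain.

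Oxidative phosphorylation genes encoded in the nucleus differed between the whole list and its single-transcript members. The 72 members had a median log2 ratio of 0.18, with 27 higher and 28 lower, which is negative with median-of-ratios factors. The 14 single-transcript members had −3.49, with 10 lower and 2 higher. Sdhd, a subunit of complex II, had 63.1 normalised CPM in the nucleus and 1015 in the cytoplasm, and Uqcrfs1, the Rieske protein of complex III, 65.1 and 1149. Atp5j2 was the highest single-transcript member, at 3.34, with 23.1% of its single-transcript bases coding. Housekeeping mRNAs outside this list differed among themselves. Gapdh, the glycolytic enzyme, had 85.2 normalised CPM in the nucleus and 29.4 in the cytoplasm, a ratio of 1.54, with 48.4% of its bases in a single transcript and 20.4% of those coding. Tmsb4x, an actin-binding peptide, had 17.8 and 1.70, and Actb 151 and 2092, a ratio of −3.79. The glycolysis list as a whole had a median of −0.18, with 8 of 20 higher and 9 lower, and turned to 1.23 with total counts.

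Serine-arginine splicing factors, the CLK kinases that phosphorylate them and their partners were mostly higher in the nucleus. Of 40, 29 were higher (72.5%, against 34.3% of all coding genes) and 4 lower, at a median log2 ratio of 2.14, against −0.45 over all coding genes. No member is a single-transcript gene, and the 20 members whose single-transcript bases are at most 20% coding had a median of 2.66 with 19 higher (95%). Among all coding genes, those with under 5% of these bases coding had 67.0% higher, at a median of 1.93. Those with 5% to 20% had 55.5% higher, at a median of 1.33, so part of this lean is shared by coding genes of that kind. Clk1 (chr1:58410189-58424066, minus strand), a kinase known to keep a pool of RNA with introns in the nucleus, had 186 normalised CPM in the nucleus and 14 in the cytoplasm. Its ratio was 3.73, with an interval of 3.52 to 3.94, and 0% of its single-transcript bases are coding. Clk4 (chr11:51261730-51281766) had 73.9 and 17.1, a ratio of 2.12, and Ccnl1, a cyclin that associates with splicing factors (chr3:65946151-65958249, minus strand), 65.2 and 9.56. Srsf7 was highest at 3.97, with 23.4 normalised CPM in the nucleus and 1.49 in the cytoplasm. Srsf1, at 156 and 747, and Srsf2, at 152 and 498, were lower in the nucleus, with ratios of −2.26 and −1.71. The annotation holds a transcript of Clk1, Clk4 and Ccnl1 that keeps an intron of the coding region, and the junction of exon and kept intron is shown for each. The intron bases shown lie in that 1 transcript only, the kind of sequence from which the counted reads appear to come. Whether reads fell on these introns was not tested. The last 30 bases of the exon come first and the first 6 bases of the intron are in capitals, at chr1:58421744-58421803 (minus), chr11:51267302-51267361 (plus) and chr3:65948232-65948291 (minus).
Clk1: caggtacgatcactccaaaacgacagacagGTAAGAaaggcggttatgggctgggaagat
Clk4: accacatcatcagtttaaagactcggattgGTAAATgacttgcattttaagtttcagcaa
Ccnl1: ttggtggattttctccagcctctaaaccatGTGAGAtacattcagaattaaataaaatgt

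Heterogeneous nuclear ribonucleoprotein genes had 18 of 35 higher (51.4%, against 34.3% of all coding genes) and 7 lower (20%, against 43.0%), at a median log2 ratio of 1.02. Their 3 single-transcript members, Hnrnpa0, Pcbp1 and Hnrnpul2, were all lower, with a median of −4.0, at a median level of 657 normalised CPM. Single-transcript coding genes above 300 normalised CPM had 96.8% lower. Pcbp1, a poly(C)-binding protein, had 131 normalised CPM in the nucleus and 2083 in the cytoplasm. Chromatin regulators had 31 of 69 higher (44.9%, against 34.3% of all coding genes), 20 lower (29.0%) and a median of 0.33, which is negative with median-of-ratios factors. Genes of mRNA export and the nuclear pore had 31 of 67 lower (46.3%), 20 higher (29.9%) and a median of −0.87, near the 43.0% and 34.3% of all coding genes, turning to 0.54 with total counts. Kpnb1, the import receptor importin beta, had 269 and 2769 normalised CPM, a ratio of −3.37. Zinc finger genes had 129 of 325 lower (39.7%) and 84 higher, and the 85 single-transcript ones 55 lower (64.7%) and 6 higher, with a median of −1.48 that is above 0 with total counts without the highest gene. The median of the whole list was −0.66, and 0.75 with total counts.

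Genes by which microglia are known lay on both sides. The microglia and macrophage list had 21 of 39 lower (53.8%, against 43.0% of all coding genes) and 12 higher, with a median log2 ratio of −1.29 that turned to 0.12 with total counts. Its 9 single-transcript members had 8 lower and 0 higher, with a median of −2.33, against 69.3% lower and −2.05 for such coding genes. Lyz2, lysozyme, had 1252 normalised CPM in the nucleus and 7894 in the cytoplasm, a ratio of −2.66. Mrc1, the mannose receptor, had 7.14 and 9.34 and was called neither way. Csf1r, the receptor of the growth factor microglia depend on, had 7.99 normalised CPM in the nucleus and 0.920 in the cytoplasm, with 18.2% of its bases in a single transcript. Itgam, the integrin CD11b, had 4.38 and 0.566 with 7.09%. Mef2c, a transcription factor, was the highest of the list at 4.57, with 124 and 5.24 normalised CPM and 9.96% of its single-transcript bases coding.

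Inflammatory and sensing genes had shares of lower members near or above those of all coding genes (43.0%, and 69.3% of single-transcript ones). Single-transcript coding genes with 100 to 300 normalised CPM had 92.4% lower. The median levels of single-transcript members lay in that range, at 126 for sensing, 129 for interferon-response and 107 for cytokine and chemokine genes. Toll-like receptor and cytosolic sensor genes had 19 of 39 lower (48.7%) and 10 higher, and their 10 single-transcript members 9 lower and 0 higher, with a median log2 ratio of −2.06. Tlr4, the endotoxin receptor, had 104 normalised CPM in the nucleus and 587 in the cytoplasm, Tlr13, a sensor of bacterial ribosomal RNA, 385 and 1728, and Traf6, an adaptor, 54.5 and 477. Tlr9, the sensor of CpG DNA, had 40.3 and 68.8, short of the 2-fold rule. Interferon-response genes had 24 of 40 lower (60%) and 11 higher, and all 10 single-transcript members were lower, with a median of −3.02. Isg15, a ubiquitin-like modifier, had 7.30 and 86.8 normalised CPM. Oas1a, which makes the activator of RNase L, had 71.9 and 295.9. Cytokine and chemokine genes had 14 of 31 lower (45.2%) and 9 higher, and 8 of 11 single-transcript members were lower (72.7%). Tgfb1 had 60.7 normalised CPM in the nucleus and 753 in the cytoplasm. Ccl3, a chemokine, had 412 and 1212, a ratio of −1.56 that is above 0 with total counts without the highest gene.

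NF-kB subunits and inhibitors had 9 of 17 higher (52.9%, against 34.3% of all coding genes) and 6 lower. Of the 17, 7 passed through the nuclear fraction only, which fixes a high ratio in part. The 9 that passed in both had 2 higher and 5 lower, at a median log2 ratio of −1.89. Rel, the single-transcript member, had 144 normalised CPM in the nucleus and 537 in the cytoplasm, a log2 ratio of −1.89. Nfkbia, the inhibitor made on activation, had 21.3 and 122.9, and Rela, the p65 subunit, 8.88 and 80.3. Nfkbiz was highest at 4.59, with 2.55% of its single-transcript bases coding. Immediate early and short-lived regulators had 20 of 36 lower (55.6%) and 9 higher, with a median of −1.31 that turned to 0.10 with total counts. Their 12 single-transcript members had 10 lower and 0 higher. Fosb was the highest, with 5.11 normalised CPM in the nucleus and 0.0708 in the cytoplasm (1 read), and 0.405% of its single-transcript bases are coding. Fos, its relative, had 28.6 and 23.9, a ratio of 0.26 that is negative with median-of-ratios factors. Btg2, an early response gene, had 58.0 and 70.6, short of the 2-fold rule. Jund was the lowest at −4.18, with 24.6 and 447 normalised CPM. Hmox1, the heme-degrading enzyme, had 83.6 and 690, a ratio of −3.04.

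Organelle and growth genes had between 44.4% and 61.5% of members lower, set against the 43.0% of all coding genes. Lysosome genes had 25 of 54 lower (46.3%) and 15 higher, and their 14 single-transcript members 13 lower and 1 higher, with a median log2 ratio of −2.32. These 14 had a median level of 358 normalised CPM, and 96.8% of single-transcript coding genes above 300 were lower. Ctsz, a cathepsin, had 747 normalised CPM in the nucleus and 4364 in the cytoplasm, and Lamp1, a membrane glycoprotein, 446 and 5273. Lipa, the acid lipase, was the highest of the list at 5.56, and 0% of its single-transcript bases are coding. Genes of endoplasmic reticulum chaperones and translocation had 27 of 45 lower (60%) and 9 higher. Spcs3, of the signal peptidase, had 172 and 1600. Cytoskeleton genes had 24 of 39 lower (61.5%) and 11 higher. All 6 single-transcript members were lower, with a median of −3.18, at a median level of 649 normalised CPM. Actr2, of the Arp2/3 complex, had 279 and 4935. DNA replication genes had 23 of 46 lower (50%), 14 higher and 7 of 7 single-transcript members lower, the last at a median level of 90.7 normalised CPM. Single-transcript coding genes with 30 to 100 normalised CPM had 80.4% lower. Mitosis genes had 20 of 45 lower (44.4%) and 9 higher. Mki67, the proliferation marker, had 607 normalised CPM in the nucleus and 1401 in the cytoplasm, a ratio of −1.21 that turned to 0.21 with total counts. Cholesterol synthesis genes had 11 of 22 lower (50%) and 5 higher, and Insig1, a regulator of that pathway, had 53.3 and 208.

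**Figure D4:**
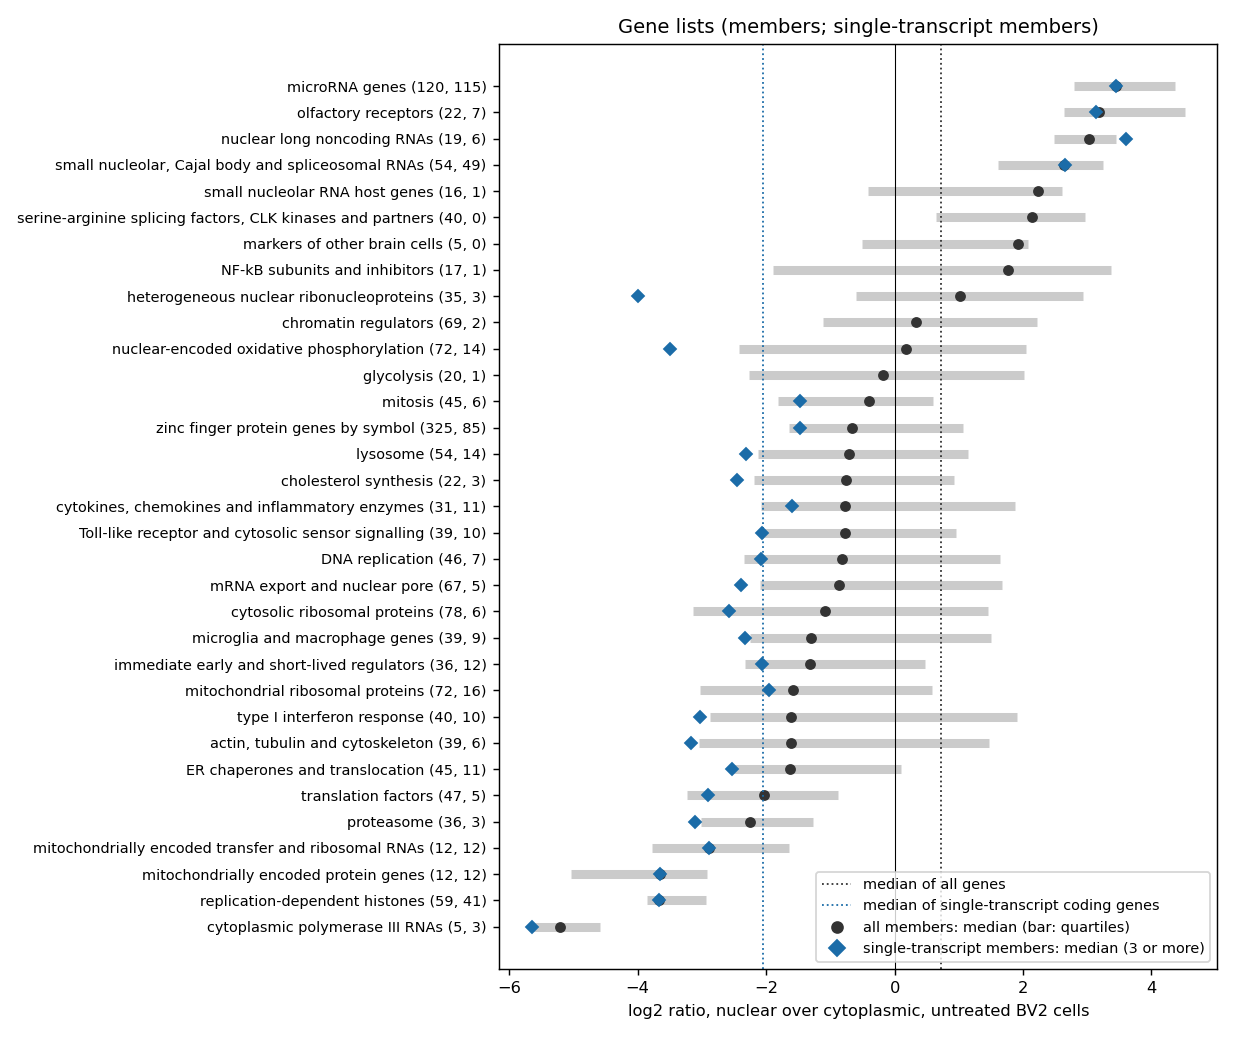
Median log2 ratio of nuclear over cytoplasmic level of each gene list with at least 5 members in untreated BV2 cells, as dots with bars for the quartiles, and of its single-transcript members as diamonds where there are at least 3. Nuclear long noncoding RNAs, small nucleolar, Cajal body and spliceosomal RNAs, and microRNA genes lie at 2 to 4 in both forms. Oxidative phosphorylation is at 0.18 as a dot and at −3.49 as a diamond. In the small nucleolar and microRNA lists, 40 of 54 and 112 of 120 members passed the count minimum through the nuclear fraction only. Members that passed in both had medians of 0.73 (14) and 2.09 (7).

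The ratios were read again in cells given oxyhemoglobin, whose nuclear and cytoplasmic libraries are other libraries of the same line under treatment. At 12 h 46.5% of 17010 genes were higher in the nucleus and 29.5% lower, and at 24 h 45.6% and 29.2%. Of the 8076 genes higher in untreated cells, 7265 were higher at 12 h (90.0%) and 7274 at 24 h (90.1%), and 6911 at both times. The opposite call was made for 18 of them at 12 h and for 16 at 24 h. Of the 5754 lower genes, 4765 were lower at 12 h (82.8%), 4762 at 24 h (82.8%) and 4500 at both, with 3 and 6 opposite calls. Pearson's correlation of the ratios across genes was 0.923 between 0 and 12 h and 0.932 between 0 and 24 h, where genes are not independent replicates. The median of single-transcript coding genes was −2.05 at 0 h, −1.57 at 12 h and −1.51 at 24 h. Histones stood at −3.67, −2.62 and −2.70, and nuclear long noncoding RNAs at 3.02, 3.45 and 3.00. Rn7sk stayed negative at −2.96, −2.78 and −2.12, mt-Co1 was at −5.01, −5.06 and −5.31, and Neat1 at 4.15, 5.33 and 4.22. The differences between times are not changes that were tested.

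**Figure D5:**
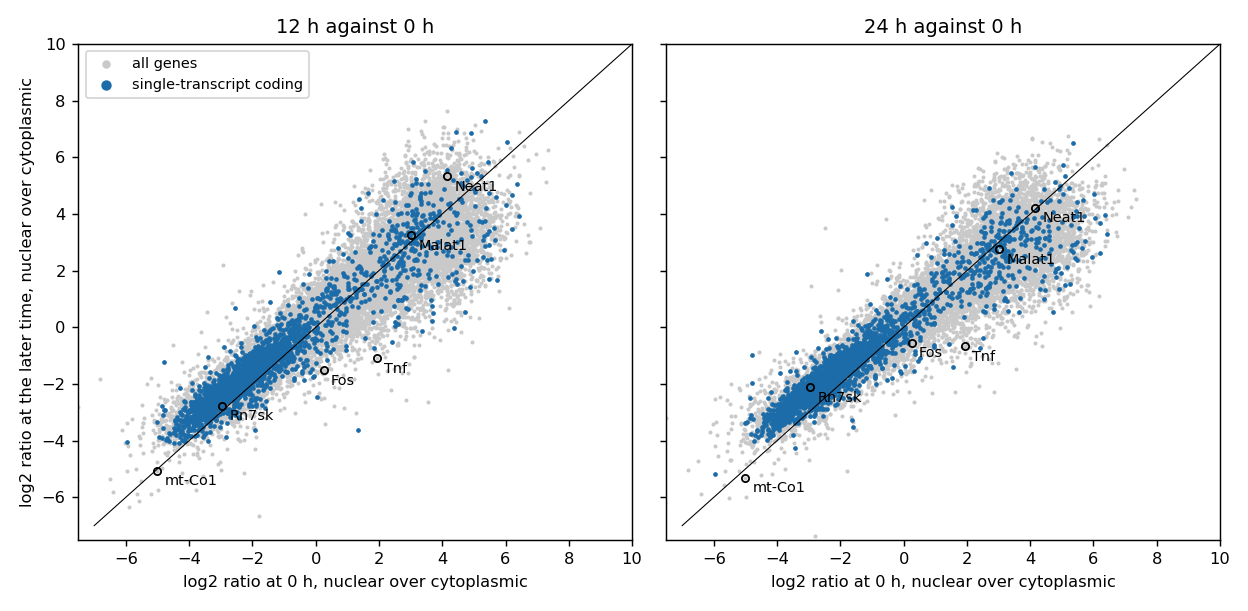
Log2 ratio of nuclear over cytoplasmic level of each gene in untreated cells (horizontal) against the ratio after 12 h (left) and 24 h (right) of oxyhemoglobin (vertical), with the line of equal ratios and single-transcript coding genes in blue. Most genes lie along the line (Pearson's r 0.923 and 0.932), Rn7sk and mt-Co1 stay below 0 and Malat1 and Neat1 above it, and Tnf lies apart at 1.94 untreated and −1.09 at 12 h.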

How the data were processed

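Nuclear and cytoplasmic RNA of BV2 cells was sequenced in 18 libraries, 3 per group. The submitters' processing notes name HISAT2 2.2.0, featureCounts, DESeq2 and the build GRCm38. The annotation release and strand setting are not stated in the sources used here. The deposited table holds estimated counts in 6 columns. Every value multiplied by 3 was whole within 0.001, so a column was taken as a mean over 3 libraries and turned back into whole summed reads. The authors also deposited TPM values, which served as an alternative. Deposited per-sample columns left unused numbered 0. No spread between libraries is available from group means, so no test was run, as the design had set.

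Scaling used the trimmed mean of M-values over all 6 columns (edgeR 4.0.16 in R 4.3.3, trimming 30% of log ratios and 5% of levels). Intervals are exact Clopper-Pearson 95% intervals of the summed reads and cover counting error only; a group at 0 was set to the floor of 3 summed reads. The floor was 0.122 normalised CPM in the nucleus and 0.212 in the cytoplasm. Symbols, classes and positions came from GENCODE M21, which held 55227 of the 55487 gene identifiers. Other steps used Python 3.11.15 (scipy 1.17.1, numpy 2.4.6, matplotlib 3.10.9, pandas 2.3.3), and the calls were tested on simulated data.

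Members and the 35 gene lists were chosen with earlier results of these data known. Genes were named by rule: the 10 highest and 10 lowest ratios with at least 5 CPM, reads in both fractions, a plain symbol and no exon overlap; in each list the extremes and the pair of highest levels; and fixed genes. The same picks among single-transcript genes, and the hosts and sequence families, were added after the data were seen. Alternatives were total counts, other scalings, other count minimums, a 4-fold rule, genes free of overlap and TPM. A few items named by the rule are not reported here.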

Additional observations from a re-analysis of the deposited data

Results flagged for a closer look

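Tnf, the gene of tumour necrosis factor, had a log2 ratio of nuclear over cytoplasmic level of 1.94 in untreated cells, with 2.72 normalised CPM in the nucleus and 0.708 in the cytoplasm. It was −1.09 after 12 h and −0.67 after 24 h of oxyhemoglobin. With total counts the ratio was 3.36 untreated and 0.0047 at 12 h, so the opposite call at 12 h depends on the scaling. It stands out because the called direction is opposite at 0 and 12 h with the trimmed mean, and this difference was not tested. Tnf has 10.8% of its exonic bases in a single transcript.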

How the results depend on the processing

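No paired analysis was possible because the columns are group means with no replicate number, and for the same reason no replicate could be left out. The 8076 higher and 5754 lower genes became 10283 and 2898 with total counts, 10692 and 2350 with total counts without the single highest gene, 4166 and 4721 at a count minimum of 50, 6351 and 3776 with a 4-fold rule, 4057 and 2426 in single-transcript genes, and 4809 and 5544 in genes not inside another gene. The other alternatives for these counts stayed within 1.5 times. Of single-transcript coding genes, 542 were higher and 893 lower with total counts.

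Smaller class and list medians below 0 can change sign with another scaling too. Of the medians that were at least 2-fold, those that changed sign with total counts were cytosolic ribosomal proteins at 0.34, immediate early regulators at 0.10 and microglia genes at 0.12. With total counts without the single highest gene they were cytosolic ribosomal proteins at 0.58, mitochondrial ribosomal proteins at 0.0758, immediate early regulators at 0.35, interferon response at 0.0541, microglia genes at 0.37, chaperones and translocation at 0.0292 and cytoskeleton at 0.0424. In single-transcript genes, heterogeneous nuclear ribonucleoproteins were at −4.0. Outside other genes, miscellaneous small RNAs were at −3.58, other RNAs at −2.27 and pseudogenes at −2.68. At a count minimum of 50, genes not in GENCODE M21 were at −0.32, other RNAs at −3.0 and pseudogenes at −2.17. Among named genes that were at least 2-fold, those that changed sign with total counts were Tug1 at 0.41, Rnu5g at 0.26, Atrx at 0.31, Parp14 at 0.26, Prim2 at 0.11, Mki67 at 0.21 and Olfr56 at 0.0454. A change of scale moves all ratios alike, which is the cause of these sign changes; for the other alternatives fewer genes were compared. Levels under the floor of 3 reads, and genes with 1 to 3 reads in a fraction, limit the ratios at the extremes.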
